A study of Mus musculus with 9 samples.

Results

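The interleukin genes described here were *Il12a*, *Il12b*, *Il23a*, *Il27* and *Ebi3*, which encode the subunits of the IL-12 family, and *Il6*, *Il10*, *Il15*, *Il18* and *Il1b*. They were found by gene symbol, and all 10 were present among the 52550 genes of the table. pDCs are dendritic cells known for making large amounts of type I IFN. In this study they were sorted from spleens of C57BL/6 mice by 3 surface markers (CD11c int, SiglecH+ and PDCA1+) and cultured for 12 hours with R848, an agonist of the endosomal receptor TLR7. There were 9 samples, 3 for each of 3 genotypes: G/G (WT), G/A (heterozygous *Ncf1*-KI) and A/A (homozygous *Ncf1*-KI). The *Ncf1*-KI allele was made by CRISPR/Cas9 and is a germline change of arginine to histidine, so it is carried by every cell of the mouse and not by pDCs alone. The labels name no unstimulated sample, and all 3 genotypes received R848. The number of mice behind each sample is not given in the sources used here. Values were analysed for A/A replicate 1, and 8 libraries were not analysed here. No value below therefore has a replicate error, and no genotypes were compared.

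IL-12 family cytokines are heterodimers, in which a helical chain of the IL-6 type is joined to a chain that resembles a soluble cytokine receptor. The receptor-like chain p40 (*Il12b*) pairs with p35 (*Il12a*) in IL-12 and with p19 (*Il23a*) in IL-23. The other receptor-like chain, EBI3 (*Ebi3*), pairs with p28 (*Il27*) in IL-27 and with p35 in IL-35. IL-12 drives Th1 cells and NK cells to make IFN-γ, IL-23 maintains Th17 cells, and IL-27 and IL-35 mostly restrain T cells. p40 is known to be secreted in excess of IL-12, whose amount is usually set by p35.

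The library held 31408298 reads in 17664 genes. A level is given as CPM, a gene's reads per 1000000 reads of the library, and levels of different genes are compared only as CPM per kilobase of exon. Intervals are 95% confidence intervals. They cover counting error alone, since 1 library was analysed. Molecular identifiers are not mentioned in the sources used here. PCR copies may therefore count as separate molecules, which would make the intervals too narrow. The sort could be checked against marker genes. The 11 pDC markers were all above the floor of 3 reads (0.0955 CPM) and together had 10293 CPM, with *Bst2* (PDCA1) at 1657 and *Siglech* at 374, and with *Itgax* (CD11c), a sort marker outside that list, at 38.5. *Bst2* and *Siglech* encode markers of the sort itself. Of 21819 protein-coding genes, 55.3% were above the floor of 3 reads, which is the share to hold beside each count above the floor. *Ncf1*, the edited gene, had 1079 CPM, and its values do not separate the alleles. The 37 mitochondrial genes were listed at 0, although every cell uses them, so a gene listed at 0 here may be a gene that was not counted. The Y-linked gene *Ddx3y* had 102 CPM and *Xist* was listed at 0, whereas the methods state that female mice were used.

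In A/A replicate 1, the receptor-like chains of the IL-12 family were the highest of the 10 interleukin genes and the helical chains were among the lowest. *Ebi3* had 6151 reads and 169.7 CPM per kilobase, and *Il12b* had 9275 reads and 150.1 CPM per kilobase. The helical chains were far lower, with 3.74 CPM per kilobase for *Il27*, 0.767 for *Il12a* and 0.0850 for *Il23a*. The 10 genes had 20014 reads in all, or 0.0637% of the library. *Il12b* and *Ebi3* took 77.1% of them.

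The promoters of the 2 highest genes and of their shared partner *Il12a* are shown because they are the regions from which these unequal subunits are transcribed. The sequences are the 250 bases before the annotated start, from RefSeq on GRCm38.p6, written 5′ to 3′ on the plus strand, which is the coding strand of these 3 genes. Capitals mark letters that match a searched motif. For *Il12b* they mark a TATA box, and for *Ebi3* and the second *Il12a* window they mark a loose form of the NF-κB site. The letters of each motif are given after the sequences.
Il12b, chr11:44399813-44400062: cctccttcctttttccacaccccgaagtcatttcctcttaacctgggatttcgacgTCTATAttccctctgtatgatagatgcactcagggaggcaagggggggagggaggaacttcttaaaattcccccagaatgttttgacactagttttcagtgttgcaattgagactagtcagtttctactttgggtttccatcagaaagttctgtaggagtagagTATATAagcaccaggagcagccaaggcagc
Ebi3, chr17:55952373-55952622: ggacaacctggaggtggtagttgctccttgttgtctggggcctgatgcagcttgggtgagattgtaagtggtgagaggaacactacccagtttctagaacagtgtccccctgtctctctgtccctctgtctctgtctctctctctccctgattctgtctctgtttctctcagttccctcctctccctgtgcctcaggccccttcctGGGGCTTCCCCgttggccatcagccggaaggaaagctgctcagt
Il12a, first start, chr3:68690394-68690643: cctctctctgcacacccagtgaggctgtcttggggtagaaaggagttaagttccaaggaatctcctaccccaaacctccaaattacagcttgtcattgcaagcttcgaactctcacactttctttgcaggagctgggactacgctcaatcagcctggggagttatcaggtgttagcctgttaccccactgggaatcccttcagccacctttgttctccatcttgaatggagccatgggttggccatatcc
Il12a, second start, chr3:68691174-68691423: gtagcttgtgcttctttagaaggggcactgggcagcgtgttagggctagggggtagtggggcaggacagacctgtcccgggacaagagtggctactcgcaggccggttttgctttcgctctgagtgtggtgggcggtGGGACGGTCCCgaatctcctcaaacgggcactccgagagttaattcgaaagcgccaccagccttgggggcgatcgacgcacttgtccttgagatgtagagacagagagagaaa

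A promoter window was held for 6 of the 10 genes, *Il12a*, *Il12b*, *Ebi3*, *Il6*, *Il18* and *Il1b*. The motifs searched on both strands were the loose NF-κB site (GGG and CC on either side of any 5 bases), a narrow NF-κB site that is a special case of it (GGGA and TTTCC on either side of any 1 base), TTGCNNAA (C/EBP), TGANTCA (AP-1), ISRE (GAAA on both sides of any 2 bases) and TATANA (TATA box). They occurred in 45.8%, 0.356%, 9.57%, 6.75%, 2.98% and 22.6% of 32841 promoter windows of the same length. The *Il12b* window held TATA box letters at 30 to 25 bases and at 194 to 189 bases before the start, the second of these on the minus strand. The *Ebi3* window held no TATA box letters and had a pair of overlapping loose NF-κB matches at 44 to 34 bases before the start. The first *Il12a* window matched none of the motifs, and the second had a pair of overlapping loose NF-κB matches at 113 to 103 bases. Of the 6 genes, *Il6* had the most matches. It held the loose NF-κB site at 85 to 76 and, overlapping, at 44 to 34 bases, the narrow one at 44 to 35, TTGCNNAA at 128 to 121 and TGANTCA at 249 to 243. *Il1b* had TATA box letters at 31 to 26 bases before the start. *Il18* had them at 3 places, the nearest at 135 to 130 bases. ISRE letters were found in none of these windows. GC content was 46.0% for *Il12b*, 56.0% for *Ebi3* and 50.8% and 58.4% for the *Il12a* windows, against a median of 52.4% over all windows. A match is a description of the letters, and the letters carry no measurement of binding.

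*Il12b* (ENSMUSG00000004296.14) lies at chr11:44400063-44414033 on the plus strand of GRCm38. Its 9275 reads gave 295.3 CPM (95% CI, 289 to 301), and over 1967 exon bases 150.1 CPM per kilobase (95% CI, 147 to 153). That level was at percentile 98.0 among 17632 genes that had reads and an exon length. *Ebi3* (ENSMUSG00000003206.6, chr17:55952623-55957021, plus strand) had 195.8 CPM (95% CI, 191.0 to 200.8), and over 1154 exon bases 169.7 CPM per kilobase (95% CI, 165.5 to 174.0), at percentile 98.3. Per kilobase, *Ebi3* was 1.13 times *Il12b* (95% CI, 1.09 to 1.17), but by reads alone it was 0.663 times *Il12b*, so the order of these genes depended on the length used. An antisense gene, *Gm16712* with 599 reads, overlapped 23.4% of the exon bases of *Ebi3*, and whether reads were counted by strand is not given in the sources used here. Counted on either strand, 15.9% of the 50-base windows of the *Ebi3* transcript occurred in a transcript of another gene. This share can include the overlap with *Gm16712*, so it is not a separate measure of shared sequence. *Il12b* shared no such window.

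Among the helical chains, *Il27* was the highest. *Il27* (ENSMUSG00000044701.5, chr7:126589010-126594941, minus strand) had 120 reads, 3.82 CPM (95% CI, 3.20 to 4.57) and 3.74 CPM per kilobase (95% CI, 3.13 to 4.47), at percentile 61.6. *Apobr* on the opposite strand, with 118 reads, overlapped 10.1% of the exon bases of *Il27*. Counted on either strand, 5.56% of the 50-base windows of *Il27* occurred in another gene's transcript, a share that can include this overlap. *Il12a* (ENSMUSG00000027776.12, chr3:68690644-68698547, plus strand) had 41 reads, 1.31 CPM (95% CI, 0.962 to 1.77) and 0.767 CPM per kilobase (95% CI, 0.566 to 1.04), at percentile 35.8. *Il23a* (ENSMUSG00000025383.2, chr10:128296139-128298752, minus strand) had 6 reads, 0.191 CPM (95% CI, 0.0876 to 0.417) and 0.0850 CPM per kilobase (95% CI, 0.0390 to 0.186), at percentile 7.63. All 3 helical chains were above the floor of 3 reads, and *Il23a* was so by 3 reads. *Il27* was 4.88 times *Il12a* per kilobase (95% CI, 3.39 to 7.13), and 2.95 times with the coding length. *Il23a* lay 3290 bases from *Stat2*, an IFN-induced gene that had 35235 reads and 189 CPM per kilobase.

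**Figure D1:**
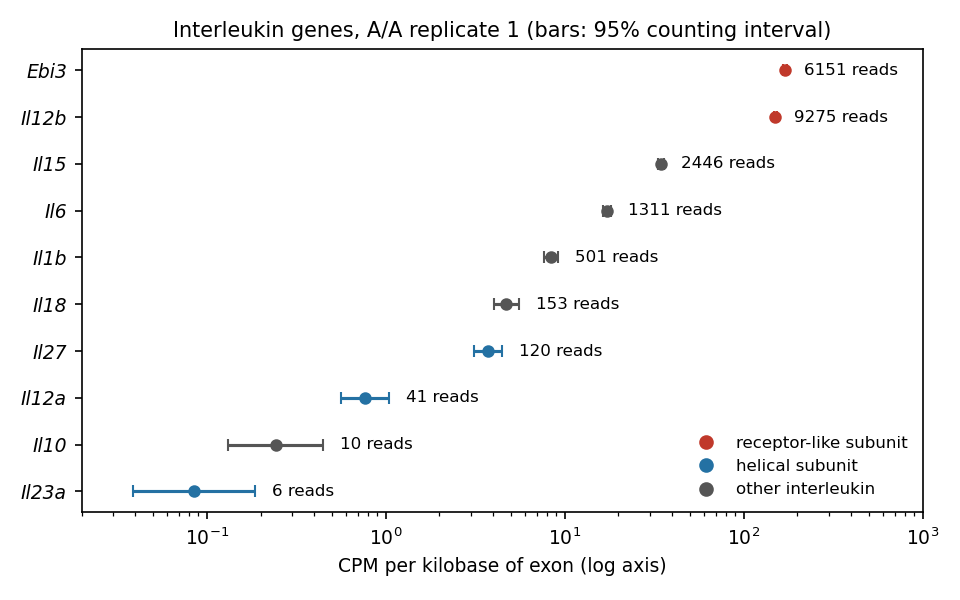
Level of each interleukin gene in A/A replicate 1, in CPM per kilobase of exon on a log axis, with bars for the 95% counting interval and the number of reads beside each point. The receptor-like chains *Ebi3* and *Il12b* (red) sit at 169.7 and 150.1, and the helical chains *Il27*, *Il12a* and *Il23a* (blue) sit at 3.74, 0.767 and 0.0850.

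The subunits were then set side by side by the cytokine that they form. For IL-12, *Il12b* was 195.6 times *Il12a* per kilobase (95% CI, 144 to 273). For IL-23, *Il12b* was 1766 times *Il23a* (95% CI, 811 to 4813), an interval made wide by the 6 reads of *Il23a*. That ratio was 1081 with the longest coding transcript and 904 with the coding length. For IL-27, *Ebi3* was 45.4 times *Il27* (95% CI, 37.9 to 54.8). For IL-35, *Ebi3* was 221 times *Il12a* (95% CI, 163 to 308). In each of the 4 cytokines the receptor-like transcript exceeded its helical partner, and the interval of no ratio reached 1. The smallest excess was that of IL-27 and the largest that of IL-23. Low read numbers in this library fell on multiples of 4 more often than on their neighbours, as given in the closing section, so each interval was also computed with 4 reads counted as 1, rounded to whole units. The intervals then ran from 109 to 419 for IL-12, 366 to 10944 for IL-23, 31.6 to 67.5 for IL-27 and 123 to 474 for IL-35. These are ratios of transcripts, and no protein or heterodimer was measured in this library.

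**Figure D2:**
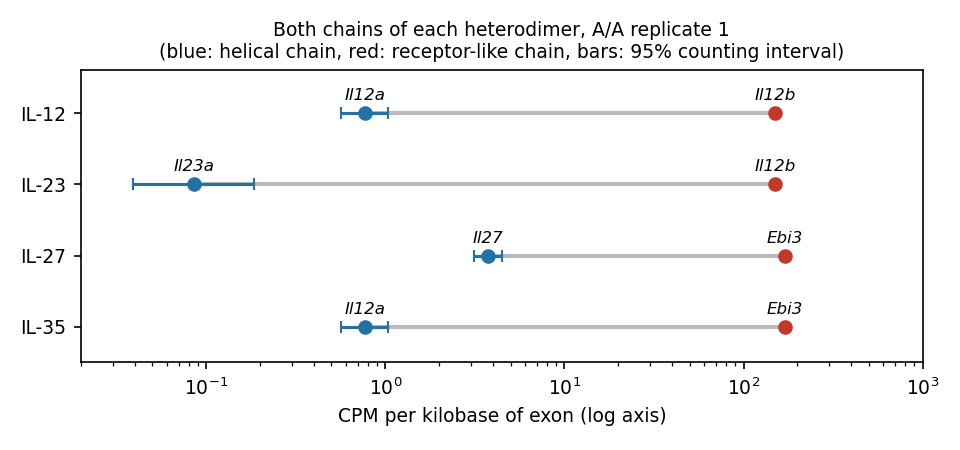
Both chains of each IL-12 family cytokine in A/A replicate 1, in CPM per kilobase of exon on a log axis, with bars for the 95% counting interval. The grey line joins the helical chain (blue) to the receptor-like chain (red), and it spans a 45.4-fold difference for IL-27 and a 1766-fold difference for IL-23.

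The other 5 interleukins were between the receptor-like chains and *Il23a*. *Il15*, which encodes a cytokine presented on the cell surface to NK cells and memory CD8+ T cells, was the highest of them. *Il15* (ENSMUSG00000031712.10, chr8:82331632-82403222, minus strand) had 2446 reads, 77.9 CPM (95% CI, 74.9 to 81.0) and 34.4 CPM per kilobase (95% CI, 33.1 to 35.8), at percentile 91.6. *Il6*, whose product drives plasmablast and Th17 differentiation, came next. *Il6* (ENSMUSG00000025746.11, chr5:30013114-30019981, plus strand) had 1311 reads, 41.7 CPM (95% CI, 39.5 to 44.1) and 17.2 CPM per kilobase (95% CI, 16.3 to 18.1), at percentile 84.9. *Il1b* and *Il18* encode cytokines without a signal peptide, which are made as precursors and cut by caspase-1. *Il1b* (ENSMUSG00000027398.13, chr2:129364570-129371139, minus strand) had 501 reads, 16.0 CPM (95% CI, 14.6 to 17.4) and 8.36 CPM per kilobase (95% CI, 7.66 to 9.13), at percentile 75.1. *Il18* (ENSMUSG00000039217.13, chr9:50554827-50581840, plus strand) had 153 reads, 4.87 CPM (95% CI, 4.16 to 5.71) and 4.72 CPM per kilobase (95% CI, 4.03 to 5.54), at percentile 65.6. *Il10*, whose product damps the output of myeloid cells, was close to the bottom. *Il10* (ENSMUSG00000016529.5, chr1:131019845-131024974, plus strand) had 10 reads, 0.318 CPM (95% CI, 0.173 to 0.586) and 0.243 CPM per kilobase (95% CI, 0.132 to 0.447), at percentile 18.2.

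The 10 levels per kilobase could be put in order, and most neighbours in it differed by more than the counting error. *Il12b* was 4.36 times *Il15* (95% CI, 4.17 to 4.56). The ratio of *Il15* to *Il6* had a 95% CI of 1.87 to 2.14, and *Il6* was 2.06 times *Il1b* (95% CI, 1.85 to 2.28). *Il1b* was 1.77 times *Il18* (95% CI, 1.47 to 2.14). The next step was not resolved at this depth, since *Il18* was 1.26 times *Il27* with an interval that held 1 (95% CI, 0.988 to 1.62). *Il12a* was 3.16 times *Il10* (95% CI, 1.56 to 7.07), but with 4 reads counted as 1 this interval also held 1 (0.821 to 36.1). At the bottom, *Il10* was 2.86 times *Il23a*, with an interval that also held 1 (95% CI, 0.941 to 9.57). The median over protein-coding genes with reads was 3.83 CPM per kilobase, which lay between the levels of *Il18* and *Il27*. In CPM per kilobase, the IL-12 family had a median of 3.74 and the other 5 interleukins a median of 8.36.

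**Figure D3:**
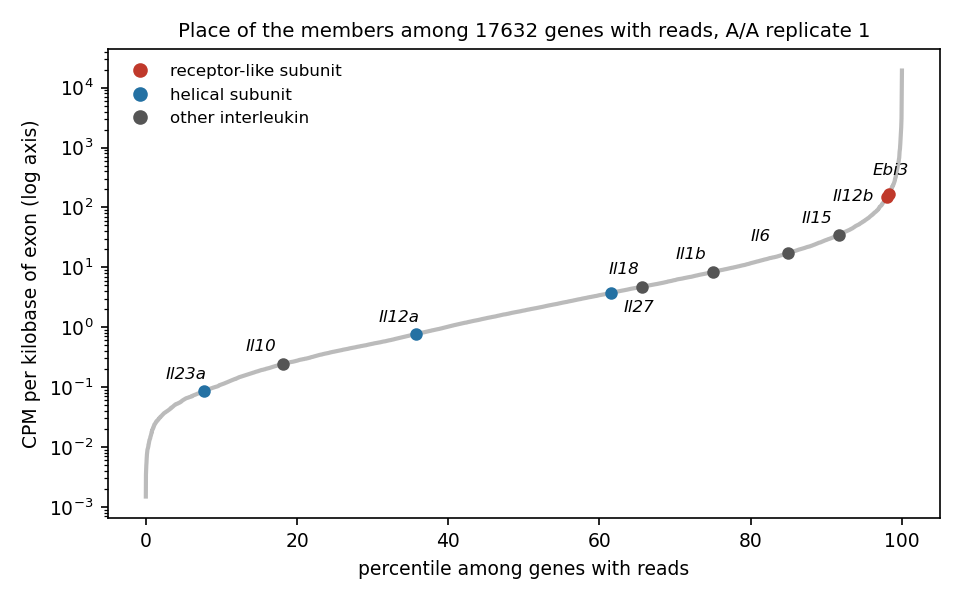
CPM per kilobase of exon, on a log axis, against the percentile among 17632 genes with reads in A/A replicate 1. The grey curve is every gene, and the 10 interleukin genes run from percentile 7.63 (*Il23a*) to 98.3 (*Ebi3*).

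Of other interleukin genes, few were read in this library. A list of 30 further interleukins was searched, of which 28 were matched by symbol. Of these, 3 (10.7%) were above 3 reads and the other 25 were listed at 0, *Il1a* and *Il33* among them. For comparison, 55.3% of 21819 protein-coding genes were above 3 reads. *Il16*, which encodes a chemoattractant of CD4+ cells, had 1908 reads and 7.72 CPM per kilobase, and *Stard5* on the opposite strand overlapped 15.3% of its exon bases. *Il36g*, a member of the IL-1 family, had 42 reads and 0.811 CPM per kilobase. *Il7*, which encodes a survival factor of lymphocytes, had 136 reads and 0.764 CPM per kilobase.

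The receptor chains were read to ask which of these cytokines have receptor transcripts in the same library. In a bulk library these need not lie in the cells that hold the interleukin transcripts. The 5 receptor chains of the IL-12 family were all above the floor. *Il12rb1*, which encodes the chain shared by the IL-12 and IL-23 receptors, had 1437 reads and 11.1 CPM per kilobase. *Il12rb2*, the other chain of the IL-12 receptor, had 1951 reads and 16.4 CPM per kilobase, but exons of *Serbp1* on the opposite strand, with 2703 reads, overlapped 40.0% of its exon bases. The chain particular to the IL-23 receptor, *Il23r*, had 12 reads and 0.154 CPM per kilobase. In these levels *Il12rb2* was above *Il23r*, and *Il12a* was above *Il23a*. *Il27ra*, the particular chain of the IL-27 receptor, had 47 reads and 0.428 CPM per kilobase. *Il6st* (gp130), the signalling chain shared by IL-6, IL-27 and IL-35, had 8007 reads and 23.0 CPM per kilobase.

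Among the 10 receptor chains of the other interleukins, 8 were above the floor. *Il2rg*, the common γ chain, was the highest at 882 CPM per kilobase from 66120 reads, with 30.5% of its exon bases overlapped by *Gm20489* on the same strand. The IL-10 receptor chains *Il10ra* and *Il10rb* had 82.3 and 35.4 CPM per kilobase, so both were far above *Il10* itself at 0.243. *Il6ra*, the ligand-binding chain for IL-6, had 2.80 CPM per kilobase. *Il15ra*, which presents IL-15 in trans, had 14.1 CPM per kilobase, and *Il15* was 2.45 times that (95% CI, 2.31 to 2.60). The inverse ratio, *Il15ra* over *Il15*, moved from 0.408 to 0.791 with the longest coding transcript and to 0.802 by reads alone. *Il2rb*, the chain with which responding cells signal to IL-15, had 30 reads and 0.223 CPM per kilobase. The IL-1 receptor chains were low, with 0.0400 CPM per kilobase for *Il1r1* from 8 reads and 0.959 for the accessory chain *Il1rap*. Both IL-18 receptor chains, *Il18r1* and *Il18rap*, were listed at 0.

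Antagonists of IL-18 and IL-1 were read beside their targets. *Il18bp*, which encodes a secreted protein that binds and neutralises IL-18, had 3826 reads and 40.3 CPM per kilobase, 8.52 times *Il18* (95% CI, 7.25 to 10.1). With the coding length the ratio was 24.7 and by reads alone 25.0. *Il1rn*, the IL-1 receptor antagonist, had 7.89 CPM per kilobase and was 0.943 times *Il1b*, with an interval that held 1 (95% CI, 0.851 to 1.05). By reads, *Il1rn* was 2.74 times *Il1b*, so which of them was higher depended on the length used. *Il1r2*, the decoy receptor of IL-1, had 44 reads and 0.734 CPM per kilobase.

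The inflammasome cuts pro-IL-1β and pro-IL-18, and its 8 listed genes were all above the floor, with a median of 12.2 CPM per kilobase. The executing genes were the highest. *Gsdmd*, whose product forms the pore, had 101 CPM per kilobase, *Casp1* had 71.8 and *Casp4* had 36.3. The adaptor *Pycard* (ASC) had 14.5. Of the sensors, the DNA sensor *Aim2* was the highest with 9.99 CPM per kilobase. *Nlrc4* had 1.88, *Nlrp1b* 0.656 and *Nlrp3* 0.628, the last from 80 reads. *Casp1* thus stood above both of its cytokine substrates, and *Nlrp3* stood below both.

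All 12 listed regulators of these genes were above the floor, with a median of 24.4 CPM per kilobase. *Irf8*, which encodes a factor of dendritic cell development that also acts on *Il12b*, was the highest with 421 CPM per kilobase. *Irf5*, a factor of inflammatory cytokine genes downstream of TLR7, had 125, and *Irf1* had 91.9. Of the NF-κB genes, *Rela* had 95.3 CPM per kilobase, *Rel* 25.0 and *Nfkb1* 9.15. The atypical IκB gene *Nfkbiz*, a coactivator at *Il6* and *Il12b*, had 17.0, and *Cebpb* had 23.8. *Zfp36* (tristetraprolin), whose product speeds the decay of cytokine mRNAs, had 175 CPM per kilobase. *Irf4* had 4.51 and *Batf3*, a factor of conventional dendritic cells, 0.957. *Maf*, which drives *Il10* in several cell types, had 10 reads and 0.0386 CPM per kilobase, the lowest of the 12. *Irf8* is also on the list of pDC markers and *Batf3* on that of conventional dendritic cells.

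**Figure D4:**
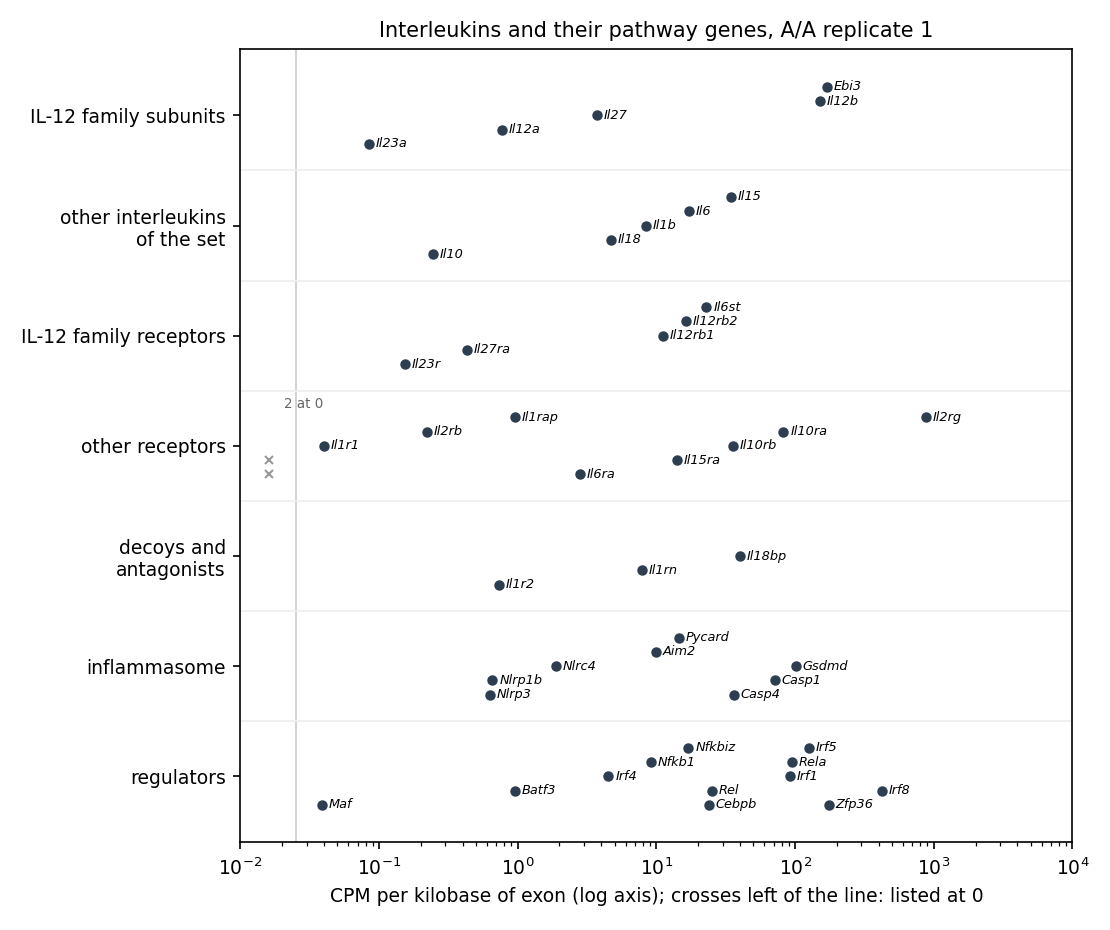
Levels of the interleukin genes and of their receptors, antagonists, inflammasome genes and regulators in A/A replicate 1, in CPM per kilobase of exon on a log axis. Each point is 1 gene, its height within a row has no meaning, and the 2 crosses left of the line are *Il18r1* and *Il18rap*, listed at 0.

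*Il12b*, *Il6*, *Il1b* and *Il18* are also made by conventional dendritic cells, macrophages and neutrophils, so markers of other cell types were read in the same library. In such a bulk sample, fewer cells of a type and less RNA per cell cannot be told apart. Of 7 conventional dendritic cell markers matched, 6 were above the floor, with 253 CPM in all. *Zbtb46* had 106 CPM, *Clec9a* 73.9 and *Sirpa* 67.5, while *Xcr1* had 1.72 and *Cd209a* was listed at 0. Of 10 macrophage or monocyte markers, 9 were above the floor, with 1792 CPM in all, of which *Ly6c2*, a gene that pDCs also express, had 1190. Such sums are over lists of different genes and lengths, so they give no share of cells. *Cd68* had 298 CPM, *Fcgr1* 180, *Csf1r* 49.0 and *C1qb* 26.0, and *Vcan* was listed at 0. Per kilobase, *Ly6c2* was at 434, *Cd68* at 237 and *Fcgr1* at 69.5, against 150.1 for *Il12b*. The others read were lower, with *C1qb* at 23.9, *C1qa* at 9.15, *Csf1r* at 8.49, *Adgre1* at 7.74, *C1qc* at 6.60 and *Mertk* at 0.397. Neutrophil markers were above the floor in 4 of 8 and summed to 35.6 CPM. Per kilobase, *S100a8* was at 21.1 and *S100a9* at 18.4, against 17.2 for *Il6* and 8.36 for *Il1b*. *Ngp* was at 7.71 and *Camp* at 2.44, and the other neutrophil markers were listed at 0. B cell markers were above the floor in 5 of 6, with 11.5 CPM in all and *Pax5* at 0. T cell markers were above it in 4 of 8, with 25.3 CPM in all, of which *Cd4* had 19.5, and with *Cd3d*, *Cd3e* and *Cd3g* at 0. Of 6 NK cell markers, 5 were listed at 0 and *Klrk1* had 256 CPM. The part of other cells in the interleukin levels was not tested.

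**Figure D5:**
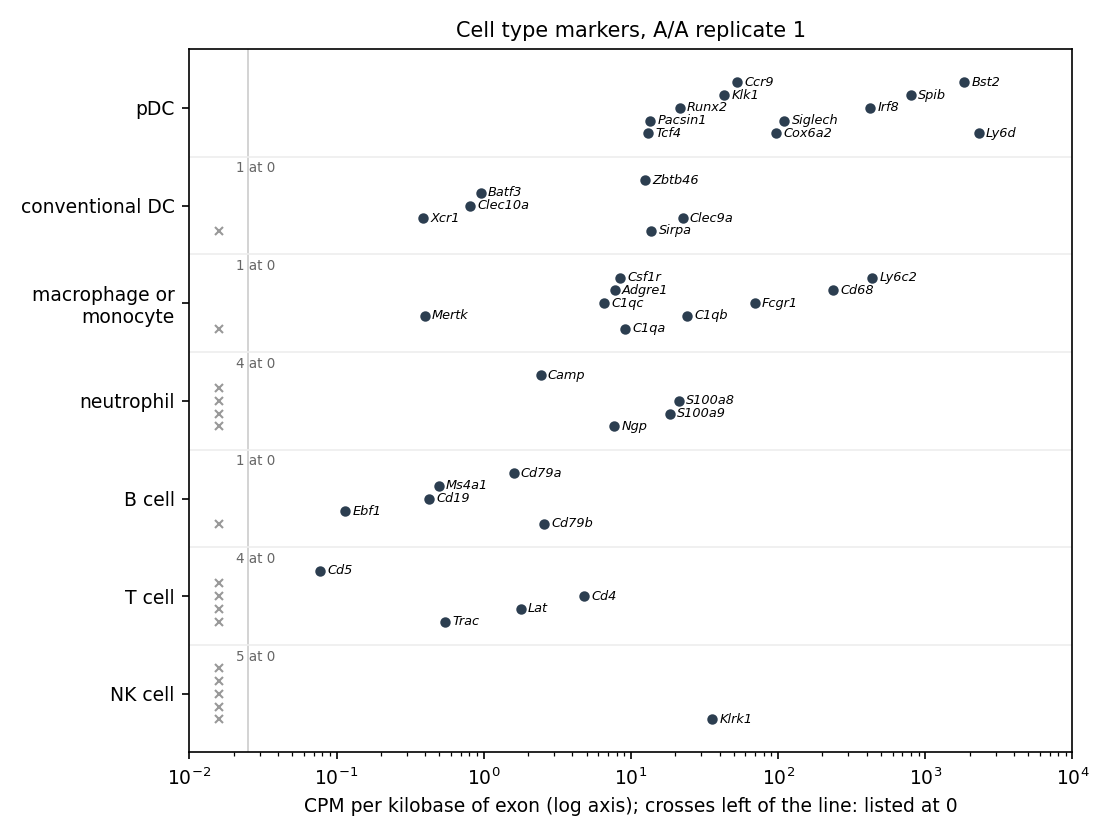
Levels of cell type markers in A/A replicate 1, in CPM per kilobase of exon on a log axis. Each point is 1 gene, its height within a row has no meaning, and crosses left of the line are genes listed at 0. The 11 pDC markers lie at 13.1 and above, but so do some markers of other cell types, such as *Ly6c2* at 434, *Cd68* at 237 and *Klrk1* at 35.7. Of the NK cell markers 5 of 6 were at 0, and of the T cell markers 4 of 8.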

How the data were processed

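The study sequenced mRNA of 9 samples as 150 bp paired-end reads. Per the labels, the submitters' processing notes name HISAT2, StringTie, mm8 and mm10, without roles or versions. The annotation, the counting and the use of strand are not given in the sources used here. The values that the authors deposited for A/A replicate 1 are a normalized signal per gene with no stated unit. In the table, 100% of values above 0 were whole multiples of 1.19 (tolerance, 0.001), and dividing by that step gave whole numbers, taken here as reads. The division was run on 3 simulated libraries of 52550 genes and returned 100% of their counts. These were whole counts multiplied by a constant, so the run checks the arithmetic only. It cannot show that a step is 1 read.

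Gene identifiers were matched to GENCODE M21 for 52403 genes (99.7%), whose coordinates are of GRCm38. Of the 10 interleukin genes, 9 had identical coordinates there, and *Ebi3* did not. CPM, CPM per kilobase of the union of exons, Wilson 95% intervals, exact (Clopper-Pearson) intervals of ratios, and percentiles among genes with reads were computed with Python 3.11.15, numpy 2.4.6, pandas 2.3.3 and scipy 1.17.1, and plots with matplotlib 3.10.9. The floor was 3 reads. Shared sequence was counted as windows of 50 bases that occurred in a transcript of another gene on either strand, so antisense overlaps are included.

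The design planned by the study, DESeq2 between genotypes, was not run, because 1 library was analysed. The genes named are the 10 interleukins and hand-made lists of receptors, antagonists, inflammasome genes, regulators, other interleukins and cell type markers. These genes and lists were chosen with earlier results of these data known. *Itgam* matched more than 1 entry and was left out. Alternatives were other gene lengths, other sets of genes for the percentile, a floor of 10 reads and a total without the 10 highest genes.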

Additional observations from a re-analysis of the deposited data

How the results depend on the processing

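All values come from a single library, and counting depth limits the lowest of them. At 31408298 reads the levels of *Il23a* (6 reads), *Il10* (10) and *Il12a* (41) have wide intervals. No paired analysis was possible because values of 1 library were analysed, and for the same reason no replicate was left out.

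Under the longest coding transcript, the coding length and no length correction, the IL-12, IL-23 and IL-27 ratios stayed within their counting intervals (for IL-23, 904 to 1546 against 1766), and the receptor-like chain was the higher in each. For IL-35, *Il12a* over *Ebi3* was 0.00644 with the coding length and 0.00667 with no length correction, against 0.00452. *Il15ra* over *Il15* was 0.791, 0.494 and 0.802 under these 3 lengths, against 0.408. *Il18bp* over *Il18* was 24.7 with the coding length and 25.0 with none, against 8.52. With the same lengths *Il27* over *Il12a* was 2.95 and 2.93, against 4.88. The first 2 genes changed places, since *Ebi3* over *Il12b* was 0.974 with the coding length and 0.663 with none, and in each of these orders 2 genes moved. *Il1rn* over *Il1b* passed 1 at 1.50, 4.14 and 2.74 under the 3 lengths. The ratios *Ebi3* over *Il12b*, *Il1rn* over *Il1b* and *Il27* over *Il12a*, and the intervals with 4 reads counted as 1, were added after the data were seen. Among neighbours in the order of levels, those intervals held 1 for *Il12a* over *Il10* as well as for the 2 steps that were unresolved before.

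The share of other interleukins above the floor was 10.7% at 3 and at 10 reads. Percentiles fell for 9 of 9 genes when genes under 10 reads were left out, by construction, and *Il23a* has too few reads for it. They fell for 10 of 10 among protein-coding genes, and with no length correction they rose for 2 and fell for 8, by -18.9 to 6.62 points. Without the 10 highest genes, CPM was 1.11 times higher for every gene, by construction.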

Other observations

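Low read numbers in A/A replicate 1 were not spread evenly. Of 1929 protein-coding genes with fewer than 50 reads but at least 1, 653 (33.9%) had a multiple of 4. Exactly 4 reads were listed for 116 protein-coding genes, against 46 with 3 and 84 with 5. Exactly 8 reads were listed for 90, against 52 with 7 and 61 with 9, and exactly 12 for 81, against 28 with 11. With 4 reads counted as 1, the interval of *Il12a* widened from 29.4 to 55.6 reads to 19.2 to 73.6 reads, and that of *Il23a* from 2.20 to 13.1 reads to 0.969 to 28.9 reads. The cause was not tested.

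The genes next to the interleukins differed widely in level. *Il10* and *Il1b* have an interleukin gene as a neighbour, *Il19* at 79730 bases and *Il1a* at 54598 bases, and both neighbours were listed at 0. *Ebi3* lay 3140 bases from *Zfp119b* and 2077 from *Yju2*, which had 5.07 and 4.45 CPM per kilobase, against 169.7 for *Ebi3*. *Il12b* lay 498853 bases from *Adra1b*, with 7 reads, and 40538 from *Ublcp1*, with 310. *Il27* lay 3193 bases from *Cln3*, at 4.79 CPM per kilobase, and 28308 from *Nupr1*, at 34.7. *Il23a* had the opposite placing to *Ebi3*, since it was below both of its neighbours, with *Pan2* at 2.62 CPM per kilobase on the side away from *Stat2*.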
